A study of Rattus norvegicus with 6 samples.

Results

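Genes for signalling kinases, phosphatases and phosphodiesterases were followed in neonatal rat ventricular cardiomyocytes (NRVCs) treated with antiretroviral drugs (ARVs). Members were taken by gene name, as all genes of the deposited table whose names begin with Map2k, Map3k, Map4k, Mapk, Dusp, Ppp, Ptpr, Ptpn, Pik3, Prk, Camk, Akap, Akt, Pde with a digit, Adcy, Plc, Dgk or Rps6k. There were 31 such genes among 1756, and all 31 are annotated as protein coding. Of the 18 name beginnings 14 had a gene, and Map4k, Camk, Akap and Akt had none. The table holds only genes that had passed the authors' own test on these libraries at an adjusted p under 0.05, so a gene that is not listed was not called or not tested by the authors, and it was not analysed here.

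The cells came from ventricles of Sprague Dawley rats aged 2 to 3 days. The ARVs were Lamivudine and Abacavir, which block the reverse transcriptase of HIV, and Atazanavir and Ritonavir, which block its protease. Cells received all of them at 5 µM, whether each or in all is not stated, for 24 h, and control cells received DMSO for as long, with 3 libraries per treatment. Whether the libraries of a treatment are separate cell preparations is not given in the sources used here. The p-values then reflect library-to-library spread only, which may be technical. NRVC cultures are enriched for myocytes by pre-plating and can still hold other cells of the ventricle. Of 10 cardiomyocyte markers 3 were in the table, and their levels are given in FPKM, a read level corrected for transcript length and library size. Myh6 averaged 1498.1 FPKM under DMSO and 831.6 under ARVs (-0.88 on the log2 scale), Myh7 had 913.8 and 1324.4 (0.51), and Nppa had 17842.7 and 14917.1 (-0.29).

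Kinases add phosphate to proteins or lipids and phosphatases take it off. In the MAP kinase cascade a MAP3K, a MAP2K and a MAP kinase act in series, and dual specificity phosphatases (DUSPs) switch the last of them off. Cyclic AMP, made after hormone receptors such as the beta adrenergic receptor are activated, releases protein kinase A from its regulatory subunits, and phosphodiesterases break cyclic AMP and cyclic GMP down. Phospholipase C splits a membrane phosphoinositide into diacylglycerol and inositol trisphosphate, while calcium bound to calmodulin drives a separate set of kinases and the phosphatase calcineurin. In the heart these pathways set contraction strength and take part in hypertrophic growth.

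Read counts were scaled by the authors' size factors, read back as the ratio of their raw to their normalized counts, and ARVs were compared with DMSO by edgeR's quasi-likelihood test. P-values were adjusted by Benjamini-Hochberg for the 1751 genes that a filter on low counts kept. The counts of the listed genes came to between 4329218 and 5871352 per library, out of totals of 17347680 to 22126119 that the FPKM values correspond to. DMSO replicate 2 stood apart. The chi-square of its counts against those of the other DMSO libraries, per degree of freedom, was 29.3 and 32.0, and for the remaining pairs within a treatment it was 4.83 to 6.43. It was the control library nearest to the ARVs mean in 54.9% of all tested genes (54.5% of the lower and 55.7% of the higher ones), and in 13 of the 31 genes, as many as DMSO replicate 3. Of the marker lists of other cells, all 8 of 10 smooth muscle markers in the table and all 9 of 9 markers of dividing cells were lower with ARVs. Of 10 fibroblast markers 2 were higher and 3 lower, and of 9 endothelial markers 1 was higher and 1 lower, the rest being outside the table. In bulk RNA, fewer cells of a type and less RNA per cell cannot be told apart.

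Of the 31 genes, 17 were higher and 14 lower with ARVs, and the cyclic nucleotide genes went mostly down while the MAP kinase and phosphoinositide genes went mostly up. Of all tested genes 39.9% were higher and 60.1% lower, together 100%, because the table was made of genes called on these same libraries with these size factors. The calls are thus no independent evidence, and the values serve to show how large and how variable each change was. The median log2 fold change was 0.20 over the 31 genes and -0.25 over all tested genes. The median size of the change was 0.30 on the log2 scale against 0.39 over all tested genes. A change of more than 2-fold was seen in 3 of the 31 genes (9.68%), a share near the 9.37% of all tested genes. The groups did not overlap in 29 of the 31 genes (17 higher and 12 lower), and in 96.1% of all tested genes (39.3% higher and 56.8% lower).

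The number of lower genes rests on the scaling. TMM factors computed from the listed genes left 7 of the 31 genes lower, and median-ratio factors left 5. Under each scaling 17 of the 31 genes were higher, and so were 39.9% of all tested genes. Among all tested genes these scalings left 50.4% and 30.6% lower and called 90.3% and 70.5% in either direction, and they moved the median log2 fold change of all genes up by 0.096 and 0.199. Both assume that most of the genes they see are unchanged, which does not hold for genes that had all been called. At an adjusted p under 0.01 edgeR called 17 genes higher and 8 lower, and 89% of all tested genes. Without DMSO replicate 2 the counts were again 17 higher and 14 lower, and of the 1751 tested genes 699 were higher and 1049 lower. The log2 fold change was then larger in size in 18 of the 31 genes, smaller in 7 and equal to 2 decimals in 6. This split was not counted over all tested genes. Among the 7 genes with a smaller change were Pik3cg (1.08 with that library and 0.96 without it), Prkar2b (-0.47 and -0.41), Ppp2r3a (-0.21 and -0.17) and Ppp1cb (-0.16 and -0.12).

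**Figure D1:**
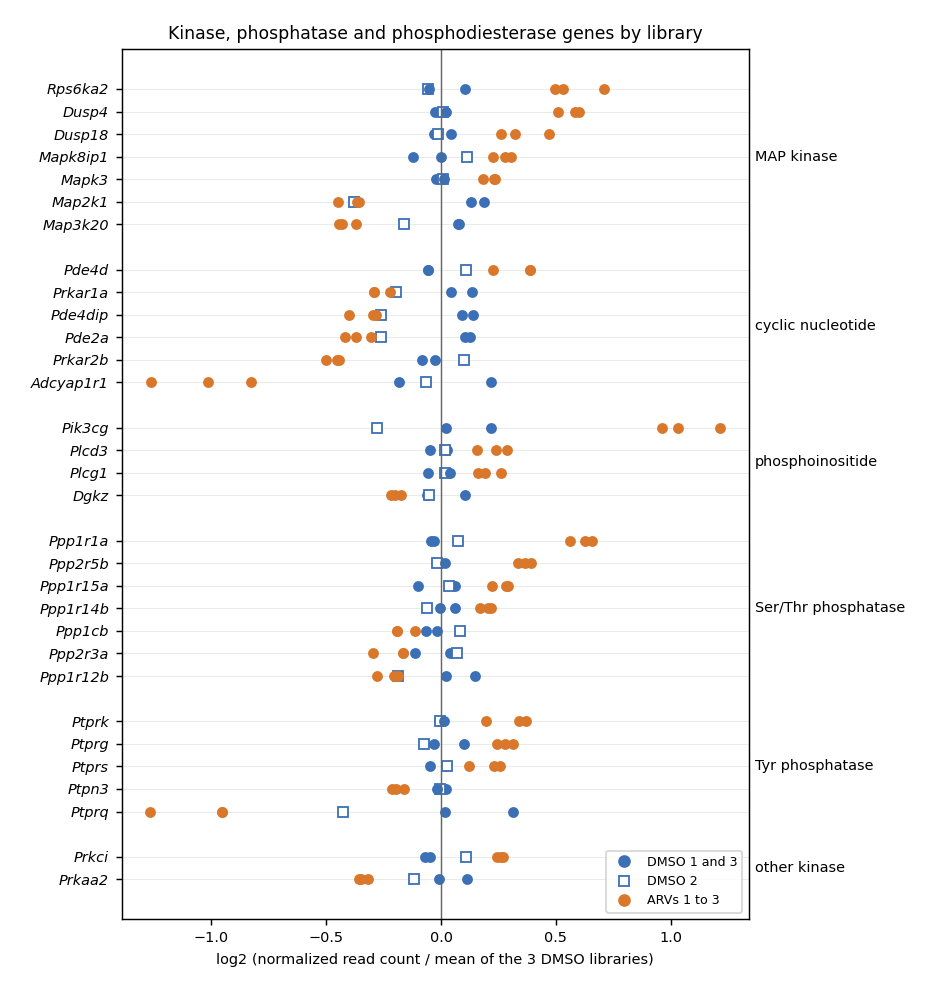
Normalized read count of each of the 31 genes in each library, as the log2 ratio to the mean of the 3 DMSO libraries, with genes grouped by branch. Filled blue points are DMSO replicates 1 and 3, open squares DMSO replicate 2 and orange points the 3 ARVs libraries, and the groups overlap in Map2k1 and Ppp1r12b only.

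In the MAP kinase branch 5 of 7 genes were higher and 2 were lower, with a median log2 fold change of 0.27. The 2 lower genes encode the upstream kinases. Map3k20 (chr3:58965552-59067369) encodes the stress-activated MAP3K called ZAK, which responds to stalled ribosomes. Its normalized read counts, given here and throughout in the order of replicates 1, 2 and 3, were 2026, 1718 and 2019.8 under DMSO and 1424, 1414 and 1489 under ARVs. All ARVs libraries were below all DMSO libraries, and edgeR's test gave a log2 fold change of -0.41 ± 0.07 (SE, adjusted p = 0.00136). Map2k1 (chr8:69134223-69164758) encodes MEK1, the kinase that activates ERK1 and ERK2. It had 2115, 1432 and 2034 counts under DMSO and 1454, 1443 and 1364 under ARVs, a log2 fold change of -0.39 ± 0.13 (SE, adjusted p = 0.0176). DMSO replicate 2 lay inside the range of the ARVs libraries, and the other control libraries were far above it. Without DMSO replicate 2 the log2 fold change of Map2k1 was -0.55 and passed edgeR's test, as did those of all 31 genes. Without DMSO replicate 1, DMSO replicate 3 or ARVs replicate 3 it was -0.28, -0.32 and -0.36, and it did not pass (adjusted p = 0.0543 to 0.0741 from edgeR). Under TMM and median-ratio factors edgeR's adjusted p of Map2k1 was 0.0571 and 0.158.

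The genes of ERK1 and of a kinase it activates were higher. Mapk3 (chr1:198192773-198198975) encodes ERK1, the MAP kinase that MEK1 phosphorylates. It had 1969, 2008 and 2018 normalized counts under DMSO and 2265, 2345 and 2348 under ARVs, a log2 fold change of 0.22 ± 0.04 (SE, adjusted p = 0.00237) in edgeR's test. The control libraries were nearly equal and the treated ones were all higher, by a small step. RefSeq lists 3 pseudogenes of Mapk3, whose reads the counting may not have told apart. Rps6ka2 (chr1:53360157-53499445) encodes RSK3, a kinase that ERK activates. Its counts were 581, 520.0 and 523 under DMSO and 886, 764 and 782 under ARVs, a log2 fold change of 0.58 ± 0.08 (SE, adjusted p = 5.4e-04) in edgeR's test, the largest rise of the branch. Every treated library was above every control library, and ARVs replicate 1 was the highest.

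Dusp4 had the smallest adjusted p of the 31 genes. Dusp4 (chr16:61078175-61091169) encodes a nuclear phosphatase that inactivates MAP kinases and is itself induced by ERK signalling. It had 2069, 2120.3 and 2139 normalized counts under DMSO and 2998, 3155 and 3194 under ARVs, a log2 fold change of 0.56 ± 0.05 (SE, adjusted p = 4.9e-05) in edgeR's test. The groups were far apart next to the spread within them. Dusp18 (chr14:84150908-84157528) encodes an atypical phosphatase of the same superfamily. It had 412, 417 and 434 counts under DMSO and 526, 504 and 584 under ARVs, a log2 fold change of 0.35 ± 0.08 (SE, adjusted p = 0.00368). Mapk8ip1 (chr3:81295024-81304181) encodes JIP1, a scaffold that holds the kinases of the JNK cascade together. Its counts were 850.2, 1002 and 925 under DMSO and 1083, 1143 and 1124 under ARVs, a log2 fold change of 0.27 ± 0.07 (SE, adjusted p = 0.00612). DMSO replicate 2 was the control nearest to the treated libraries, and without it the log2 fold change of Mapk8ip1 was 0.33. In RefSeq the genes Dusp18 and Mapk8ip1 overlap the protein-coding genes Slc35e4 and Frey1, and the standard TruSeq RNA kit named in the labels does not mark strand, so shared reads cannot be assigned.

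**Figure D2:**
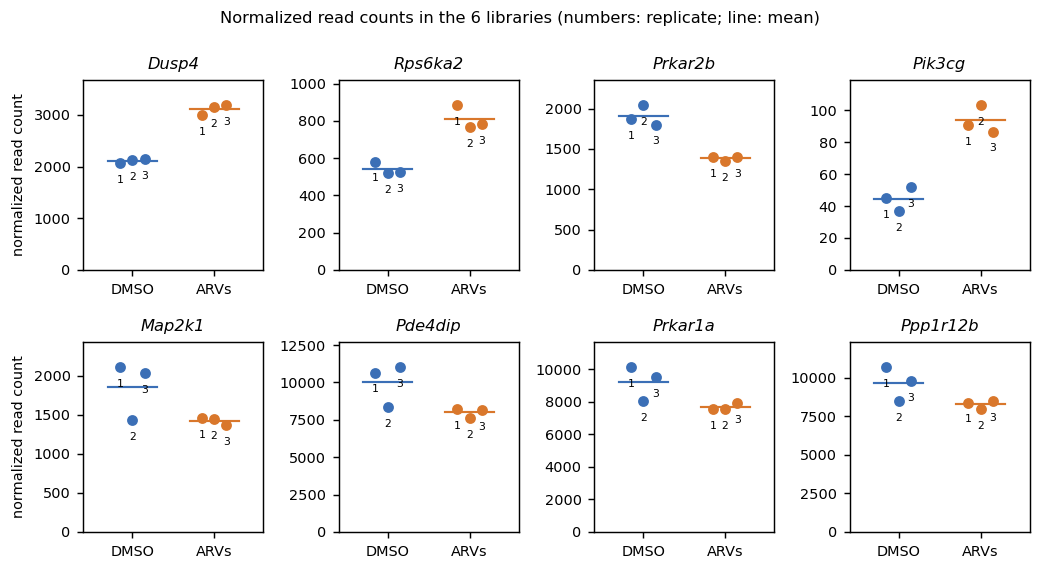
Normalized read counts (vertical axis, from 0) of 8 genes in the 6 libraries, DMSO in blue and ARVs in orange, each point numbered by its replicate and the line at the group mean. In Dusp4, Rps6ka2, Prkar2b and Pik3cg the groups are separate with all control libraries together, whereas in Map2k1, Pde4dip, Prkar1a and Ppp1r12b DMSO replicate 2 lies near the ARVs libraries.

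In the cyclic nucleotide branch 5 of 6 genes were lower and 1 was higher, with a median log2 fold change of -0.34. This median stayed below 0 with TMM (-0.25) and median-ratio factors (-0.14), under which 4 and 2 genes were lower. At the receptor, Adcyap1r1 (chr4:85662892-85711696) encodes PAC1, the receptor for the neuropeptide PACAP that couples to adenylyl cyclase. It is the only gene whose name begins with Adcy in the table, and it is not a cyclase. It had 114, 93.6 and 86.2 normalized counts under DMSO and 48.5, 40.8 and 55.1 under ARVs, a log2 fold change of -1.03 ± 0.20 (SE, adjusted p = 0.0021) in edgeR's test. The groups did not overlap, but the level was low, at 0.793 ± 0.107 FPKM with DMSO and 0.397 ± 0.0549 with ARVs (SD, n = 3 each).

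Genes for the regulatory subunits of protein kinase A were lower. Prkar1a (chr10:97940705-97957336) encodes the type I alpha subunit, which holds the catalytic subunits inactive until cyclic AMP binds. It had 10144, 8053 and 9508 normalized counts under DMSO and 7547, 7543 and 7921 under ARVs, a log2 fold change of -0.27 ± 0.08 (SE, adjusted p = 0.0104). DMSO replicate 2 was the lowest control library and lay just above ARVs replicate 3. The log2 fold change was -0.36 without it and -0.19 without DMSO replicate 1, and with TMM or median-ratio factors it was -0.17 and -0.06 and did not pass (adjusted p = 0.0603 and 0.375 from edgeR). RefSeq lists 1 pseudogene of Prkar1a and an overlap with Fam20a. Prkar2b (chr6:51265515-51356383) encodes the type II beta subunit, which is bound by anchoring proteins. Its counts were 1876, 2047 and 1803 under DMSO and 1402, 1349 and 1396 under ARVs, a log2 fold change of -0.47 ± 0.06 (SE, adjusted p = 3.5e-04) in edgeR's test. Here DMSO replicate 2 was the highest control library, and all treated libraries were lower under each scaling. On the FPKM scale the level of Prkar1a was higher than that of Prkar2b in both groups, at 326.6 ± 33.7 against 53.6 ± 4.09 with DMSO and 276.7 ± 5.94 against 39.5 ± 0.44 with ARVs (SD, n = 3 each). Genes for catalytic subunits of protein kinase A were not in the table.

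The genes of the phosphodiesterases moved in opposite directions. Pde2a (chr1:166534643-166626158) encodes an enzyme that breaks down cyclic AMP and cyclic GMP and is stimulated by cyclic GMP. It had 1066, 816 and 1049 normalized counts under DMSO and 732, 755 and 791 under ARVs, a log2 fold change of -0.36 ± 0.10 (SE, adjusted p = 0.00829). Without DMSO replicate 2 its log2 fold change was -0.48, and with median-ratio factors it did not pass (-0.16, adjusted p = 0.132 from edgeR). Pde4d (chr2:40554146-41464264) encodes an enzyme specific for cyclic AMP. Its counts were 585, 655 and 584 under DMSO and 711, 794 and 795 under ARVs, a log2 fold change of 0.33 ± 0.08 (SE, adjusted p = 0.00378) in edgeR's test. It was the only higher gene of the branch, and its groups did not overlap. Pde4dip (chr2:199867972-200003443) encodes myomegalin, an anchoring protein first described as a partner of PDE4D and not an enzyme. It had 10656, 8358 and 11039 counts under DMSO and 8239, 7596 and 8153 under ARVs, a log2 fold change of -0.33 ± 0.10 (SE, adjusted p = 0.0107). DMSO replicate 2 lay just above the treated libraries, the log2 fold change without it was -0.44, and with median-ratio factors the gene did not pass (-0.12, adjusted p = 0.182 from edgeR).

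In the phosphoinositide branch 3 of 4 genes were higher and 1 was lower, with a median log2 fold change of 0.22. Pik3cg (chr6:51465908-51498337) encodes the catalytic subunit of PI3K gamma, the lipid kinase driven by G protein coupled receptors and best known from leukocytes. It had 45.1, 36.7 and 51.7 normalized counts under DMSO and 90.8, 103 and 86.6 under ARVs, a log2 fold change of 1.08 ± 0.19 (SE, adjusted p = 0.00165) in edgeR's test. This was the largest rise of the 31 genes, the groups did not overlap, and the level stayed low, at 0.348 ± 0.057 FPKM with DMSO and 0.747 ± 0.0784 with ARVs (SD, n = 3 each). The table held 4 of 10 markers of macrophages and leukocytes, none of them at 0, with Adgre1, Cd68 and Lyz2 higher and Cd74 lower. Their summed level was 38.8 to 43.5 FPKM in the DMSO libraries and 51.1 to 54.9 in the ARVs libraries, most of it from Lyz2. Lyz2 averaged 31.2 FPKM with DMSO and 40.4 with ARVs, Cd68 7.47 and 10.7, Adgre1 0.861 and 2.03, and Cd74 1.24 and 0.384. The part of leukocytes in the rise of Pik3cg was not tested.

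Genes of the phospholipases C rose by less. Plcg1 (chr3:156727642-156758307) encodes the gamma form, which receptor tyrosine kinases activate. It had 3307, 3479.6 and 3529.8 normalized counts under DMSO and 3842, 3928 and 4122 under ARVs, a log2 fold change of 0.21 ± 0.05 (SE, adjusted p = 0.00442). Plcd3 (chr10:91164812-91186054) encodes a delta form. Its counts were 1539.7, 1531 and 1462 under DMSO and 1685, 1785 and 1841 under ARVs, a log2 fold change of 0.23 ± 0.05 (SE, adjusted p = 0.00399). Each had separate groups, as did 96.1% of all tested genes. Each passed with TMM and with median-ratio factors, both of which move fold changes up. Dgkz (chr3:80844005-80875817) encodes diacylglycerol kinase zeta, which removes the diacylglycerol that phospholipase C makes. It had 1916, 1924 and 2147 counts under DMSO and 1717, 1739 and 1767 under ARVs, a log2 fold change of -0.20 ± 0.06 (SE, adjusted p = 0.009). The fall of Dgkz rests on the scaling: under TMM it was -0.10 and under median-ratio factors 0.00 (edgeR's adjusted p was 0.112 and 0.969).

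Of 7 genes for protein phosphatases 1 and 2A (serine/threonine phosphatases), 4 were higher and 3 were lower. The gene of the catalytic subunit and the genes of several of its partners differed in direction. Ppp1cb (chr6:23549317-23581052) encodes the beta catalytic subunit of protein phosphatase 1. It had 9600.4, 10299.8 and 9288 normalized counts under DMSO and 8532, 9003 and 8508 under ARVs, a log2 fold change of -0.16 ± 0.05 (SE, adjusted p = 0.0138), the smallest change of the 31 genes. Ppp1r12b (chr13:51584299-51784639) encodes MYPT2, which directs that subunit to myosin in striated muscle. Its counts were 10704, 8480.4 and 9798 under DMSO and 8389, 7965 and 8492 under ARVs, a log2 fold change of -0.22 ± 0.08 (SE, adjusted p = 0.0233). The groups overlapped, since DMSO replicate 2 was below ARVs replicate 3, and without DMSO replicate 2 the log2 fold change was -0.31. The call of Ppp1r12b was lost when DMSO replicate 1 (-0.14) or 3 (-0.21), or ARVs replicate 1 (-0.23) or 2 (-0.19), was removed, with edgeR's adjusted p at 0.0519 to 0.0899. Ppp1cb did not pass without ARVs replicate 1 or 3 (-0.15 for each, adjusted p = 0.0522 and 0.0527 from edgeR). Neither gene passed with TMM (-0.13 for Ppp1r12b and -0.07 for Ppp1cb) or median-ratio factors (-0.02 and 0.03). RefSeq lists 7 pseudogenes of Ppp1cb.

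Genes for inhibitors and for a stress-induced partner of protein phosphatase 1 were higher. Ppp1r1a (chr7:145146481-145154131) encodes inhibitor-1, which blocks protein phosphatase 1 once protein kinase A has phosphorylated it. It had 117, 127 and 119 normalized counts under DMSO and 191, 187 and 179 under ARVs, a log2 fold change of 0.62 ± 0.12 (SE, adjusted p = 0.00221) in edgeR's test. This was the largest rise after that of Pik3cg, with narrow groups, and in RefSeq the gene overlaps Pde1b. Ppp1r14b (chr1:222229835-222231944) encodes a further inhibitor. Its counts were 2320.4, 2234 and 2429 under DMSO and 2703, 2685 and 2616 under ARVs, a log2 fold change of 0.20 ± 0.05 (SE, adjusted p = 0.00471), and RefSeq lists 2 pseudogenes and 2 closely named genes that could share its reads. Ppp1r15a (chr1:101511901-101514974) encodes GADD34, which directs protein phosphatase 1 to the translation factor eIF2 alpha during the stress response. It had 1354, 1326 and 1208 counts under DMSO and 1510.1, 1586 and 1577 under ARVs, a log2 fold change of 0.26 ± 0.06 (SE, adjusted p = 0.00358). All 3 genes had groups that did not overlap, as did 96.1% of all tested genes.

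Of the subunits of protein phosphatase 2A, Ppp2r5b was higher and Ppp2r3a lower. Ppp2r5b (chr1:221597296-221605400) encodes a regulatory subunit of the B56 family. It had 1027, 1015 and 1041 normalized counts under DMSO and 1349, 1324 and 1294 under ARVs, a log2 fold change of 0.36 ± 0.05 (SE, adjusted p = 5.5e-04) in edgeR's test. The groups were tight and separate. Ppp2r3a (chr8:109482614-109621408) encodes a calcium-binding regulatory subunit. Its counts were 4292, 4387 and 3861 under DMSO and 3406, 3726 and 3725 under ARVs, a log2 fold change of -0.21 ± 0.06 (SE, adjusted p = 0.0111). The fall was -0.11 and -0.01 under TMM and median-ratio factors and did not pass (edgeR's adjusted p was 0.119 and 0.914). In RefSeq these genes overlap the protein-coding genes Gpha2 and Msl2.

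The promoters of these genes were searched for 16 patterns of letters. Some are bound by factors at the end of the pathways above. The others belong to unrelated factors such as SP1 and NRF1, and their matches are not reported here. RefSeq's GRCr8 table held promoter windows, from 250 bases before to 50 bases after the annotated start, for 24 of the 31 genes. It had none for Mapk3, Mapk8ip1, Dusp4, Ppp1r14b, Ppp1r1a, Ptprk and Ptprq. The 24 genes had 31 windows, and their matches are counted by gene, while the background shares are counted by window. The cyclic AMP response element TGACGTCA, bound by CREB and related factors, was found in the windows of Ppp1r15a and Ptprs, and it occurs in 1.83% of all 33469 windows and 2.58% of the 1432 windows of genes in the table. The AP-1 element TGANTCA, bound by FOS and JUN proteins, was found in the window of Ppp1r15a, and it occurs in 7.33% of all windows and 6.22% of those of genes in the table. The letters searched for the serum response element, ETS (ACCGGAAGT), MEF2, EGR (GCGTGGGCG) and the ATF4 element (TGATGNAAN) were in the windows of 0 of the 24 genes, and they occur in 0.0807%, 1.2%, 0.128%, 0.544% and 3.97% of all windows. Both elements read the same on either strand and were picked from 16 patterns searched after the values had been seen. The windows of the genes with a full cyclic AMP response element are shown 5′ to 3′ along the gene. Matches to that full element and to the AP-1 element are in capitals. In Ppp1r15a (GRCr8 chr1:105139547-105139846, minus strand) the cyclic AMP response element begins 66 bases and the AP-1 element 6 bases before the start. In Ptprs (GRCr8 chr9:1394042-1394341, minus strand) the cyclic AMP response element begins 47 bases before the start. A match describes the letters only, and binding was not measured.
Ppp1r15a: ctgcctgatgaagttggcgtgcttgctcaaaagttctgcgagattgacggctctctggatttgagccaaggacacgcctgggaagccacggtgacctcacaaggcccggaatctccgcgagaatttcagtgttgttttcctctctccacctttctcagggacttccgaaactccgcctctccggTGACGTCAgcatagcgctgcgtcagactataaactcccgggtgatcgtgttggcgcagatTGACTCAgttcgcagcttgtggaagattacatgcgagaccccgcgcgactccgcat
Ptprs: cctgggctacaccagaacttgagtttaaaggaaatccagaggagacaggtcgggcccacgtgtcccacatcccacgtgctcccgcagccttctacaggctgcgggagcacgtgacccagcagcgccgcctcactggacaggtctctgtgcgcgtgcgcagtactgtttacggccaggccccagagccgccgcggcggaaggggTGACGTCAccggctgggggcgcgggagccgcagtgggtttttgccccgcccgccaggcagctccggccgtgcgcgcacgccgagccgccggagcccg

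Among 5 genes for tyrosine phosphatases 3 were higher and 2 were lower. The 3 higher genes encode receptor-type enzymes with large extracellular parts. Ptprs (chr9:10603813-10645939), whose product binds proteoglycans, had 2825, 2841 and 2693 normalized counts under DMSO and 3034, 3328 and 3269 under ARVs, a log2 fold change of 0.20 ± 0.05 (SE, adjusted p = 0.0054). Ptprk (chr1:17446417-18058055), whose product mediates adhesion between like cells, had 785, 786 and 798 counts under DMSO and 905, 998 and 1019 under ARVs, a log2 fold change of 0.30 ± 0.06 (SE, adjusted p = 0.0029). Ptprg (chr15:12926167-13228607), whose product binds contactins, had 911, 806 and 833 counts under DMSO and 1005, 1056 and 1032 under ARVs, a log2 fold change of 0.28 ± 0.06 (SE, adjusted p = 0.00396). In RefSeq Ptprg overlaps the protein-coding gene LOC120097096. In each of the 3 genes all treated libraries were above all control libraries, and groups were separate in 96.1% of all tested genes. Each passed with TMM and median-ratio factors, which move fold changes up and called 39.9% of all tested genes higher, as the authors' size factors did.

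The lower tyrosine phosphatase genes were Ptpn3 and Ptprq. Ptpn3 (chr5:74248996-74368186) encodes a cytoplasmic enzyme with a FERM domain that sits under the cell membrane. It had 4205, 4126 and 4087 normalized counts under DMSO and 3574, 3615 and 3699 under ARVs, a log2 fold change of -0.19 ± 0.04 (SE, adjusted p = 0.00339). The step was small and even across libraries, and with TMM and median-ratio factors it was -0.09 and 0.01 and did not pass (adjusted p = 0.0559 and 0.885 from edgeR). Ptprq (chr7:49763657-50034932) encodes a receptor-type enzyme that acts mainly on phosphoinositides and is known from hair cells of the inner ear. It had 59.6, 35.7 and 48.5 counts under DMSO and 24.8, 19.9 and 24.7 under ARVs, a log2 fold change of -1.06 ± 0.27 (SE, adjusted p = 0.00568). It was the lowest of the 31 genes on the FPKM scale, at 0.328 ± 0.0776 with DMSO and 0.162 ± 0.0178 with ARVs (SD, n = 3 each). Its groups did not overlap, but its standard error was the largest of the 31 genes.

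The remaining kinase genes also split. Prkaa2 (chr5:124574079-124642569) encodes the alpha 2 catalytic subunit of AMP-activated protein kinase (AMPK), the form that prevails in heart and skeletal muscle. It had 3521, 3002 and 3238 normalized counts under DMSO and 2557, 2541 and 2607 under ARVs, a log2 fold change of -0.34 ± 0.06 (SE, adjusted p = 0.00164) in edgeR's test. The fall passed with TMM (-0.25) and with median-ratio factors (-0.14, adjusted p = 0.0427 from edgeR). Prkci (chr2:115941993-116002561) encodes an atypical protein kinase C of cell polarity. Its counts were 862, 976 and 875 under DMSO and 1083, 1089.5 and 1069.5 under ARVs, a log2 fold change of 0.26 ± 0.06 (SE, adjusted p = 0.00515), with groups that did not overlap.

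**Figure D3:**
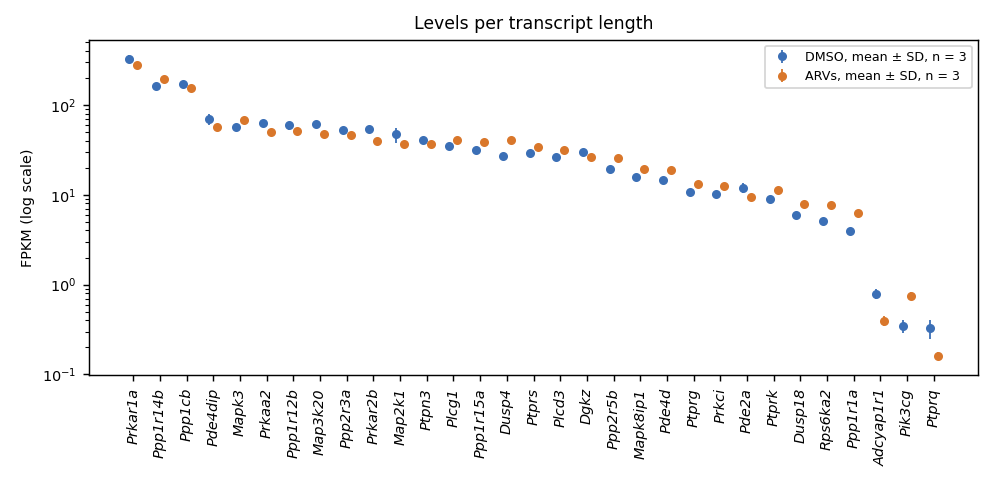
Level of the 31 genes per transcript length (vertical axis, FPKM on a log scale) with DMSO (blue) and ARVs (orange), mean and SD over 3 libraries, ordered by the mean over all libraries. Prkar1a, Ppp1r14b and Ppp1cb are the highest, and Adcyap1r1, Pik3cg and Ptprq lie below 1 FPKM in both groups.

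Adcyap1r1, Pik3cg and Ptprq, the 3 genes that changed more than 2-fold, were also the 3 with the lowest counts, at a mean over the 6 libraries under 150 normalized counts, and they had the widest standard errors (0.19 to 0.27). A gene with few counts could enter the table only with a large change, so nothing is read from this. The next lowest was Ppp1r1a, at a mean of 153.3. Among the other 28 genes the largest change was 0.62 and the largest standard error 0.13. At the top of the FPKM scale, Ppp1r14b stood at 163.9 ± 6.23 with DMSO and 191.5 ± 4.87 with ARVs, and Ppp1cb at 168.8 ± 10.8 and 153.5 ± 6.7 (SD, n = 3 each). The order of these neighbours thus differed between the groups, and with DMSO their levels lay within 1 SD of Ppp1cb.

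Some of the genes are neighbours in the genome and moved apart. Prkar2b and Pik3cg lie on chromosome 6 with 109.5 kb between them in the coordinates of the table, and their log2 fold changes were -0.47 and 1.08. Dgkz and Mapk8ip1 lie on chromosome 3 with 419.2 kb between them, with -0.20 and 0.27. Ppp2r5b and Ppp1r14b on chromosome 1, 624.4 kb apart, were both higher (0.36 and 0.20).

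**Figure D4:**
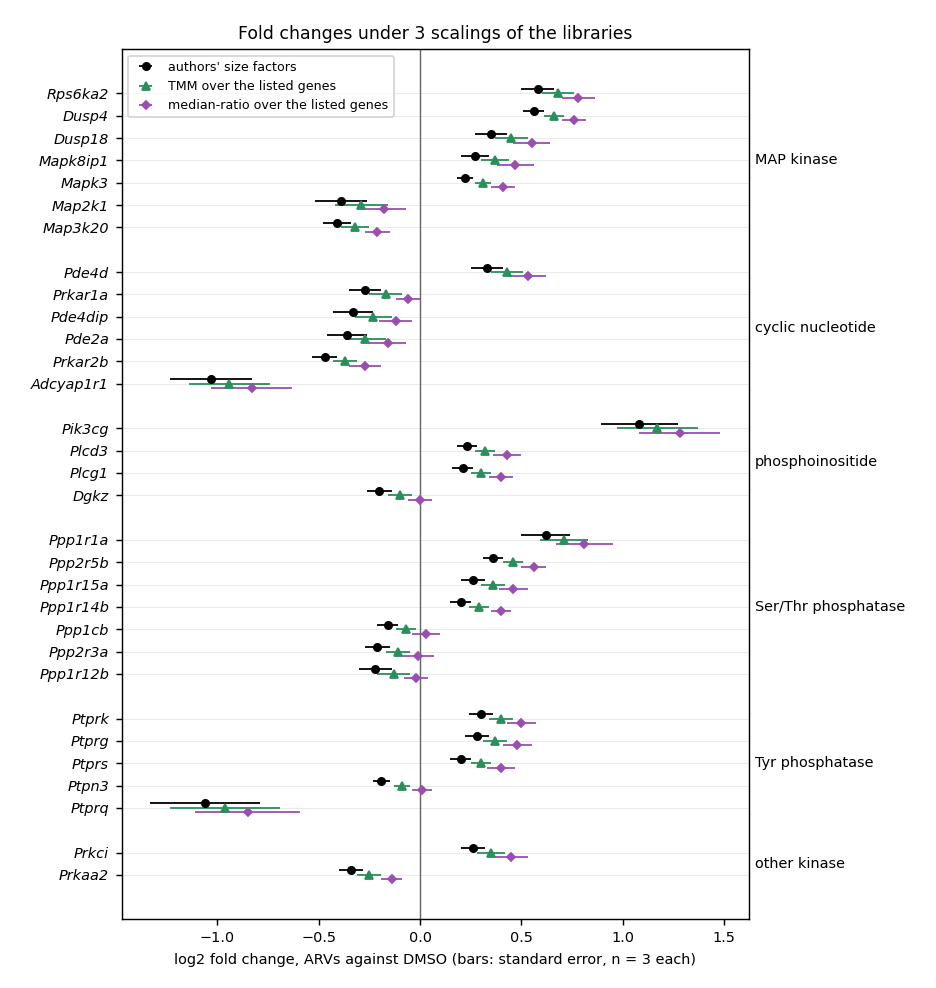
Log2 fold change of ARVs against DMSO (horizontal axis, bars show the standard error, n = 3 each) for the 31 genes under the authors' size factors (black), TMM (green) and median-ratio factors (purple) over the listed genes. All 17 higher genes stay above 0, while Dgkz, Ppp1cb and Ptpn3 reach 0.00 to 0.03 with median-ratio factors.

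Other genes of the same pathways were counted from 7 lists of 219 genes, of which 34 were in the table. Their log2 fold changes are given ± SE from the same edgeR fit (n = 3 each). All 34 passed it, as did all 1751 tested genes, since the table holds only called genes. The shares to set beside each list are 39.9% higher and 60.1% lower, those of all tested genes. In the list of the RAS-ERK pathway and its feedback targets, 8 of 45 genes were found in the table, 6 higher and 2 lower, with a median log2 fold change of 0.55. Myc, a growth-promoting transcription factor, rose by 0.68 ± 0.11, and Spry1, an inhibitor of receptor tyrosine kinase signalling that ERK induces, by 0.57 ± 0.09. Egr2 and Egr1, immediate early transcription factors, rose by 0.78 ± 0.14 and 0.70 ± 0.14. Ksr1, a scaffold that binds MEK and ERK, and Phlda1 had 0.52 ± 0.13 and 0.22 ± 0.05. The lower genes were Etv4, a transcription factor (-0.38 ± 0.08), and Fgfr1, a growth factor receptor (-0.37 ± 0.13). The groups of Fgfr1 overlapped, and the call was lost when DMSO replicate 1 or 3, or ARVs replicate 1 or 2, was removed (edgeR's adjusted p was 0.0607 to 0.0688). In the list of p38 and JNK stress kinases 3 of 19 genes were in the table: Gadd45a, an activator of p38 signalling (0.50 ± 0.09), and Jund, an AP-1 factor (0.52 ± 0.11), were higher, and Mef2c, a muscle transcription factor that p38 phosphorylates (-0.67 ± 0.08), was lower.

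In the list of the cAMP-PKA pathway 6 of 35 genes were found in the table, 4 lower and 2 higher, with a median log2 fold change of -0.44. Adrb1, the beta-1 adrenergic receptor of the heart, had -0.42 ± 0.07. Rapgef4, a cyclic AMP sensor apart from protein kinase A, had -0.52 ± 0.11. Nr4a1 and Sik1, both induced through CREB, had -0.64 ± 0.14 and -0.46 ± 0.13. The higher genes were Pln, which encodes the inhibitor of the calcium pump that protein kinase A relieves (0.38 ± 0.05), and Gnai2, an inhibitory G protein subunit (0.17 ± 0.05). In the list of the cGMP-PKG pathway 6 of 17 genes were found in the table, 3 higher and 3 lower. Mrvi1, which encodes a substrate of protein kinase G at the calcium store of smooth muscle, had -0.98 ± 0.13, and Gucy1b1, a subunit of soluble guanylyl cyclase, had -0.55 ± 0.07. The other lower gene was Nppa (-0.29 ± 0.05) and the higher ones were Npr2, a natriuretic peptide receptor (0.25 ± 0.06), Rgs2 (0.38 ± 0.09) and Nppb (0.22 ± 0.09), of which Nppb had 0.13 without DMSO replicate 2 and did not pass without DMSO replicate 1 or without any single ARVs library (adjusted p = 0.0507 to 0.131 from edgeR).

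No gene whose name begins with Camk was in the table, so the calmodulin branch is described from its list alone. Of 33 genes 6 were in the table, 4 lower and 2 higher, at a median of -0.34 on the log2 scale, and with median-ratio factors 1 was lower. Mylk, the myosin light chain kinase of smooth muscle, fell by most of these 6 genes (-0.76 ± 0.06). Calm2, which encodes calmodulin, had -0.25 ± 0.05, and with median-ratio factors it had -0.05 and did not pass (adjusted p = 0.411 from edgeR). Dapk1, a death-associated kinase that calmodulin activates, was higher (0.43 ± 0.08). The others were Hdac9 (-0.47 ± 0.11), Rcan2, an inhibitor of calcineurin (-0.43 ± 0.12), and Mylk3, the cardiac myosin light chain kinase, which was higher (0.25 ± 0.07). The 8 smooth muscle markers in the table include Mylk, and none of them was at 0. They summed to 4207.2 to 4908.7 FPKM in the DMSO libraries and 3014.5 to 3412.9 in the ARVs libraries. Most of this sum came from Acta2 (2969.5 FPKM with DMSO and 2141.7 with ARVs) and Tagln (1275.0 and 870.1). The part of smooth muscle cells in the lower level of Mylk, Mrvi1 and Gucy1b1 was not tested.

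In the list of the phosphoinositide and AKT pathway 2 of 51 genes were in the table and both were lower. They were Synj2, an inositol phosphatase (-0.48 ± 0.10), and Itpr1, a receptor for inositol trisphosphate that releases calcium (-0.35 ± 0.09). In the AMPK list 3 of 19 genes were in the table: Sesn2, a stress-induced activator of AMPK (0.39 ± 0.05), and Flcn (0.30 ± 0.08) were higher, and Tbc1d1, an AMPK substrate in glucose uptake (-0.28 ± 0.06), was lower. Under median-ratio factors Etv4, Fgfr1, Sik1, Nppa, Calm2, Hdac9, Rcan2, Itpr1 and Tbc1d1 did not pass, and under TMM Fgfr1 did not.

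**Figure D5:**
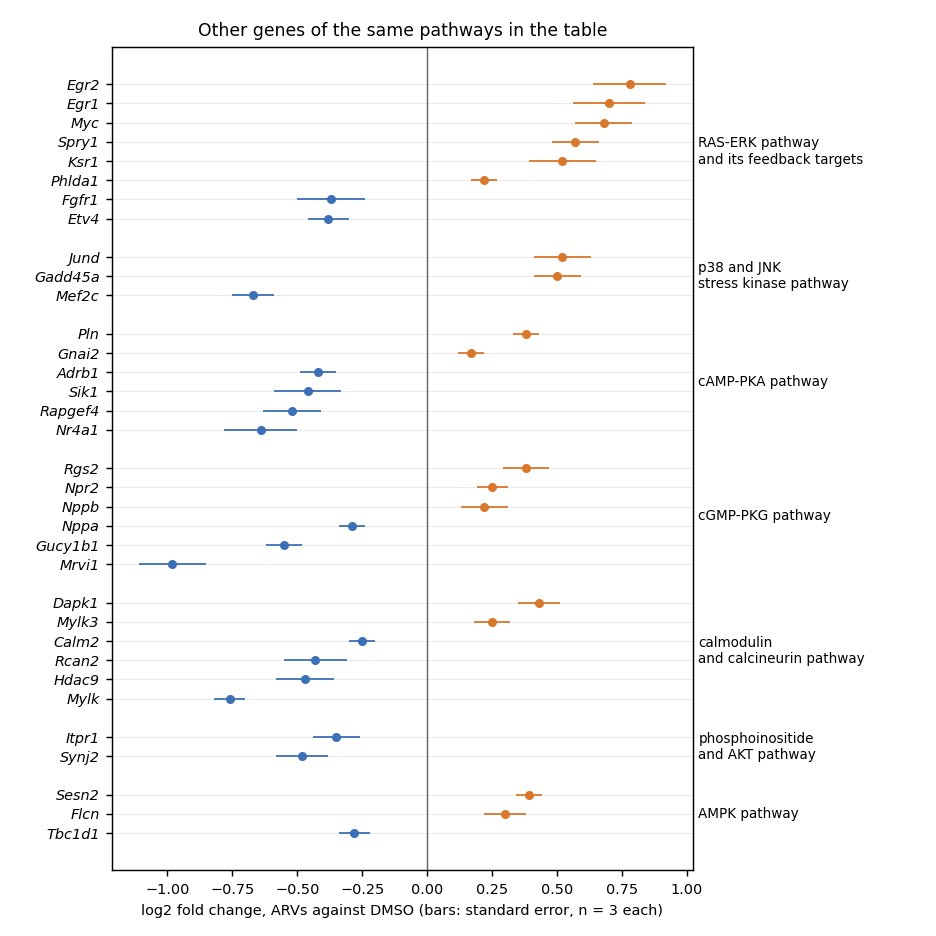
Log2 fold change of ARVs against DMSO (horizontal axis, bars show the standard error, n = 3 each) for the 34 genes of the 7 pathway lists that were in the table, orange where higher and blue where lower. Egr2, Egr1, Myc and Spry1 lie between 0.57 and 0.78, and Mrvi1 is the lowest at -0.98.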

How the data were processed

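RNA of 3 ARVs and 3 DMSO libraries had been sequenced on an Illumina instrument. The authors aligned it to the rat genome (release 97) by HISAT2, and StringTie 1.3.3b was used for transcript assembly. The program that counted reads, and whether counting used strand, are not given in the sources used here. The deposited raw read counts are whole numbers per gene. The deposited normalized signal is the count divided by 1 size factor per library, which was read back as the ratio of both columns. The deposited FPKM values, scaled by the authors to transcript length and library total, were used to compare levels between genes, to sum the cell type markers per library, and to work out library totals. The table also holds the authors' fold changes and p-values, which were not used. Coordinates are those of the table, and promoter windows are RefSeq's for GRCr8.

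Raw counts were tested with edgeR 4.0.16 in R 4.3.3 (filterByExpr, which removed 5 genes, then glmQLFit and glmQLFTest), with library sizes proportional to the authors' size factors and Benjamini-Hochberg adjustment at 0.05. Factors computed over the listed genes were kept as alternatives, since every listed gene had been called. Standard errors come from the fold change and the F value. The test was checked on simulated counts. Alternatives were TMM, median-ratio factors, DESeq2 1.42.0, a threshold of 0.01, no filter or a minimum of 10 counts in all libraries, each library left out, and the replicate number as a block. All 31 members are named, with per-library counts. By rule up to 4 genes of each pathway list with the smallest adjusted p are named, and the other list genes and the promoters were chosen after their values were seen. The members, branches and lists were chosen with earlier results of these data known. No set test was run. Some genes are not reported here.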

Additional observations from a re-analysis of the deposited data

How the results depend on the processing

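The number of higher genes among the 31 was 17 under every alternative run. Of all tested genes 699 were higher with the authors' size factors, TMM, median-ratio factors, DESeq2 and the replicate block. TMM and median-ratio factors moved the fold changes up, so a higher gene that passes under them gains no support from it. The number of lower genes was 14 with the authors' size factors, 7 with TMM, 5 with median-ratio factors and 8 at an adjusted p of 0.01, and 12 to 14 when a library was left out. Over all tested genes 1052 were lower, 883 with TMM and 536 with median-ratio factors. With median-ratio factors the log2 fold changes of Dgkz, Ppp1cb and Ptpn3 became 0.00, 0.03 and 0.01 and did not pass, a shift that follows from the higher scaling of the ARVs libraries. DESeq2, no filter and at least 10 counts in every library left each of the 31 calls as it was. This is a trait of the whole table, as DESeq2 called 699 of all tested genes higher and 1052 lower, like edgeR. Low counts limit Adcyap1r1, Pik3cg and Ptprq most, with standard errors of 0.19 to 0.27. The correlations of same-numbered deviations were -0.007, 0.243 and 0.067, and 1 of 3 numbers matched itself best. With 3 libraries per treatment and only called genes in the table, this cannot decide whether same-numbered libraries share a preparation. With the replicate block 17 of the 31 genes were higher and 14 lower, as without it. The block also left all tested genes at 699 higher and 1052 lower.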
